A study of Rattus norvegicus with 9 samples.

Results

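The genes described here are 53 genes of DNA replication and nucleotide synthesis, listed by their role in copying DNA. The list was made with earlier results of these data known. They were looked up by gene symbol in the annotation of the whole-transcript arrays, which named a probe set for 50 of them. The annotation used here names no probe set for Rrm1, Tk1 or Tipin, so these have no value. Of the 50, Pole2 lay at or below the 25th percentile of its array on all but 2 of the 9 arrays and was not tested, which left 49 members among 15793 tested genes of 18166 named ones. RNA came from female F344 rats given 2 injections of the plant alkaloid retrorsine, each of 30 mg/kg and 2 weeks apart, with removal of part of the liver 4 weeks after the last injection. All 3 groups therefore share retrorsine and partial hepatectomy, and no group of untreated liver is among them. The first group is small hepatocyte-like progenitor cells (SHPCs), which form clusters, from livers that also received sorted Thy1+ donor cells through the spleen, here called SHPCs of transplanted livers. The second is SHPCs of livers that received no donor cells, and the third is the neighbouring hepatocytes of such untransplanted livers, with 3 arrays in each group. Donors carried the enzyme DPPIV and recipients are described as negative for it. Regions were cut by laser from frozen sections 7 µm thick, chosen by their look under the microscope, so a region can hold RNA of other cells of the tissue. The sources used here tie no region to an animal, and p-values measure only the spread between arrays, which may be technical.

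Cells prepare for replication by loading the ring of Mcm2 to Mcm7 onto origins, which needs the origin recognition complex, Cdc6 and Cdt1. Cdc45 and the GINS proteins turn the loaded ring into the active helicase. Primase and polymerase alpha start each strand, and polymerases delta and epsilon extend it together with the clamp Pcna. Ribonucleotide reductase, thymidylate synthase and dUTPase supply the deoxynucleotides. In most mammalian cells, transcription of these genes is held back in resting cells and released by E2F factors before S phase, while many genes of G2 and M phase depend on a promoter element named CHR. In the adult liver hepatocytes rarely divide, removal of liver tissue brings most of them into the cycle, and retrorsine blocks most hepatocytes from completing it.

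Promoter sequence is shown first because it is a property the choice of genes did not use. Windows from 250 bases before to 50 bases after the transcript start were taken from RefSeq (build GRCr8) and matched 45 of the 53 genes, with 48 windows. The letters searched for E2F were TTTGGCGC, TTTCCCGC, TTTCGCGC and TTTGCCGC, for CHR they were TTTGAA, and for the binding site of the factor NF-Y they were CCAAT, each on both strands, where 2 E2F matches can overlap. E2F letters were found in the promoters of 22 of the 45 members (48.9%), against 3.47% of 12755 tested genes with a window and 2.37% of all 27457 genes of the table. CHR letters were in 6 members (13.3%), against 14.3% of tested genes and 19.4% of the table, and CCAAT in 29 (64.4%), against 38.8% and 39.6%. A comparison list of 19 G2 and M phase genes with a window ran the other way for these 2 elements, with E2F letters in 1 (5.26%) and CHR letters in 14 (73.7%). CCAAT was in 16 of the 19 (84.2%), a larger share than among the members. Of the 22 members with E2F letters, 18 had a match that starts within 50 bases of the transcript start. Among the roles, the MCM genes held most, with a match in 6 of the 7 that had a window. A match is a description of these letters and does not show that a factor binds there.

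The 160 bases before the transcript start are printed for MCM genes that hold a whole match in this stretch, and for Prim1 and Fam111a, both of which passed a test below and hold none. Capitals mark E2F letters on either strand, and each sequence runs 5′ to 3′ on the strand of its gene. Mcm2 lies on the minus strand at chr4:122918095-122918254, Mcm5 on the plus strand at chr19:13488653-13488812, Mcm6 on the minus strand at chr13:42404353-42404512, and Mcm7 on the minus strand at chr12:22163179-22163338. Mcm8 lies on the plus strand at chr3:140539487-140539646, Prim1 on the plus strand at chr7:1031302-1031461, and Fam111a on the plus strand at chr1:219065479-219065638.
Mcm2: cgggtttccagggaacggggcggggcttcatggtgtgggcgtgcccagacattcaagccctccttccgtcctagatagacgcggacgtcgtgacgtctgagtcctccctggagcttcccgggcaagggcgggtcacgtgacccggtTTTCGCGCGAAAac
Mcm5: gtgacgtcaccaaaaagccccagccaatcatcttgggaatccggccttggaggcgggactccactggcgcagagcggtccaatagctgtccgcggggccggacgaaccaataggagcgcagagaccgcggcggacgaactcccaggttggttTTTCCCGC
Mcm6: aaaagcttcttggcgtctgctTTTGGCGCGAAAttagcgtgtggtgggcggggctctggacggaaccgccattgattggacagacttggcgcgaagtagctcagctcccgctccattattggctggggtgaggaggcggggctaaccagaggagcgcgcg
Mcm7: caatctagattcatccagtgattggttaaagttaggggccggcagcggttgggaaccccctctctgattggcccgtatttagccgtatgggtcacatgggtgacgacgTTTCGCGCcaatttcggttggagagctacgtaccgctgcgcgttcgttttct
Mcm8: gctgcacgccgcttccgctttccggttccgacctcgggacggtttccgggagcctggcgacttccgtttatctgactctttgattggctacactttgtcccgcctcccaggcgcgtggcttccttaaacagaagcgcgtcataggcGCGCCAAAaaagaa
Prim1: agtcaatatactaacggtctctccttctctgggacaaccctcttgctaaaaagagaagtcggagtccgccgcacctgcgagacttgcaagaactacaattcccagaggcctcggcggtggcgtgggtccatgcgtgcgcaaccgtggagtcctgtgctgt
Fam111a: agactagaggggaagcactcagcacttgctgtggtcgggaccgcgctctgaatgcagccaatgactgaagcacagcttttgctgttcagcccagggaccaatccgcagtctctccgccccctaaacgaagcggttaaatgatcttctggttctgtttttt
The match of Mcm2 is a palindrome that ends 2 bases short of the start, and that of Mcm5 reaches the start itself. In Mcm6 both matches overlap and lie near the upstream end of the printed stretch, while the match of Mcm8 reads on the other strand. Fam111a is among the 6 members with CHR letters, which begin 2 bases before its start, and it holds CCAAT as well. No window of Rrm2 was in the table.

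**Figure D1:**
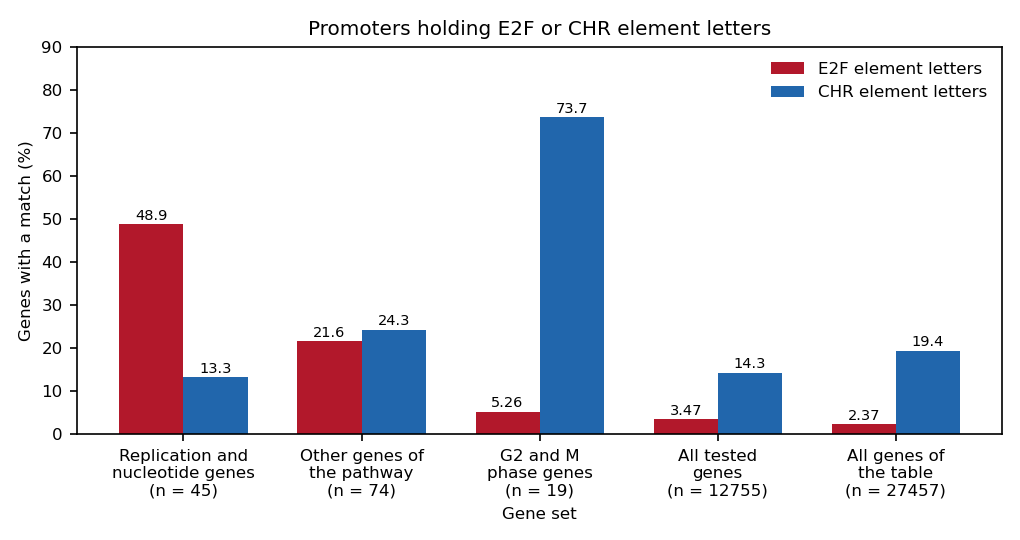
Share of genes (percent, vertical axis) whose promoter window holds E2F letters (red) or CHR letters (blue), for 5 gene sets (horizontal axis, n = genes with a window). E2F letters are in 48.9% of replication and nucleotide synthesis genes and 5.26% of G2 and M phase genes, and CHR letters in 13.3% and 73.7%.

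Values below are log2 of the authors' intensity, and differences are on the log2 scale with the standard error (SE) of a limma fit over all 9 arrays. A gene was called at a Benjamini-Hochberg adjusted p under 0.05 over all 15793 tested genes. Of the 9 arrays, the second of the SHPCs and the second of the hepatocytes differed from the rest in scale, with median intensities of 24.1 and 23.0 on the linear scale against 19.6 to 20.6, and counts are therefore also given without them. Their log2 values also had a narrower spread, with SD of 1.94 and 1.98 against 2.09 to 2.13. On the first principal component, with 54.4% of the variance, they lay at 54.1 and 42.2 and the others at −22.8 to 2.30. Hepatocyte markers were high everywhere: the summed linear intensity of 8 of them was 43378 to 45071 in SHPCs of transplanted livers, 37331 to 42995 in SHPCs and 38847 to 42816 in hepatocytes. Against hepatocytes 7 of the 8 were higher in SHPCs of transplanted livers and 5 in SHPCs. Cyp2e1 was lower in both, at 11.06 to 11.55, 11.18 to 11.57 and 11.82 to 12.15 in the same order of groups. Members had medians over the 50 genes of 5.00, 5.00 and 4.70 in the same order of groups, where the arrays' 25th percentiles were 2.85 to 3.14. With the filter raised to the array median, 41 of the 50 remained. Intensities of different probe sets are not comparable as levels of RNA, so each gene is compared only with itself.

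In both SHPC groups most members lay above the hepatocytes. Relative to the hepatocyte mean, the median of the 49 members was 0.27, 0.34 and 0.31 on the arrays of transplanted livers, 0.34, 0.21 and 0.39 on SHPC arrays 1 to 3, and −0.00, 0.03 and 0.02 on the hepatocyte arrays. All 6 SHPC arrays were above all 3 hepatocyte arrays by this measure, and the median of all tested genes stayed between −0.03 and 0.03. The genes did not move as a block. In SHPCs of transplanted livers the members' differences ran from −0.16 to 2.75, the largest being that of Rrm2, and 4 members were lower than in hepatocytes. In SHPCs they ran from −0.19 to 1.95, the largest being that of Fam111a, and 5 members were lower. SHPC array 2 was the lowest SHPC array for 34 of the 49 members.

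**Figure D2:**
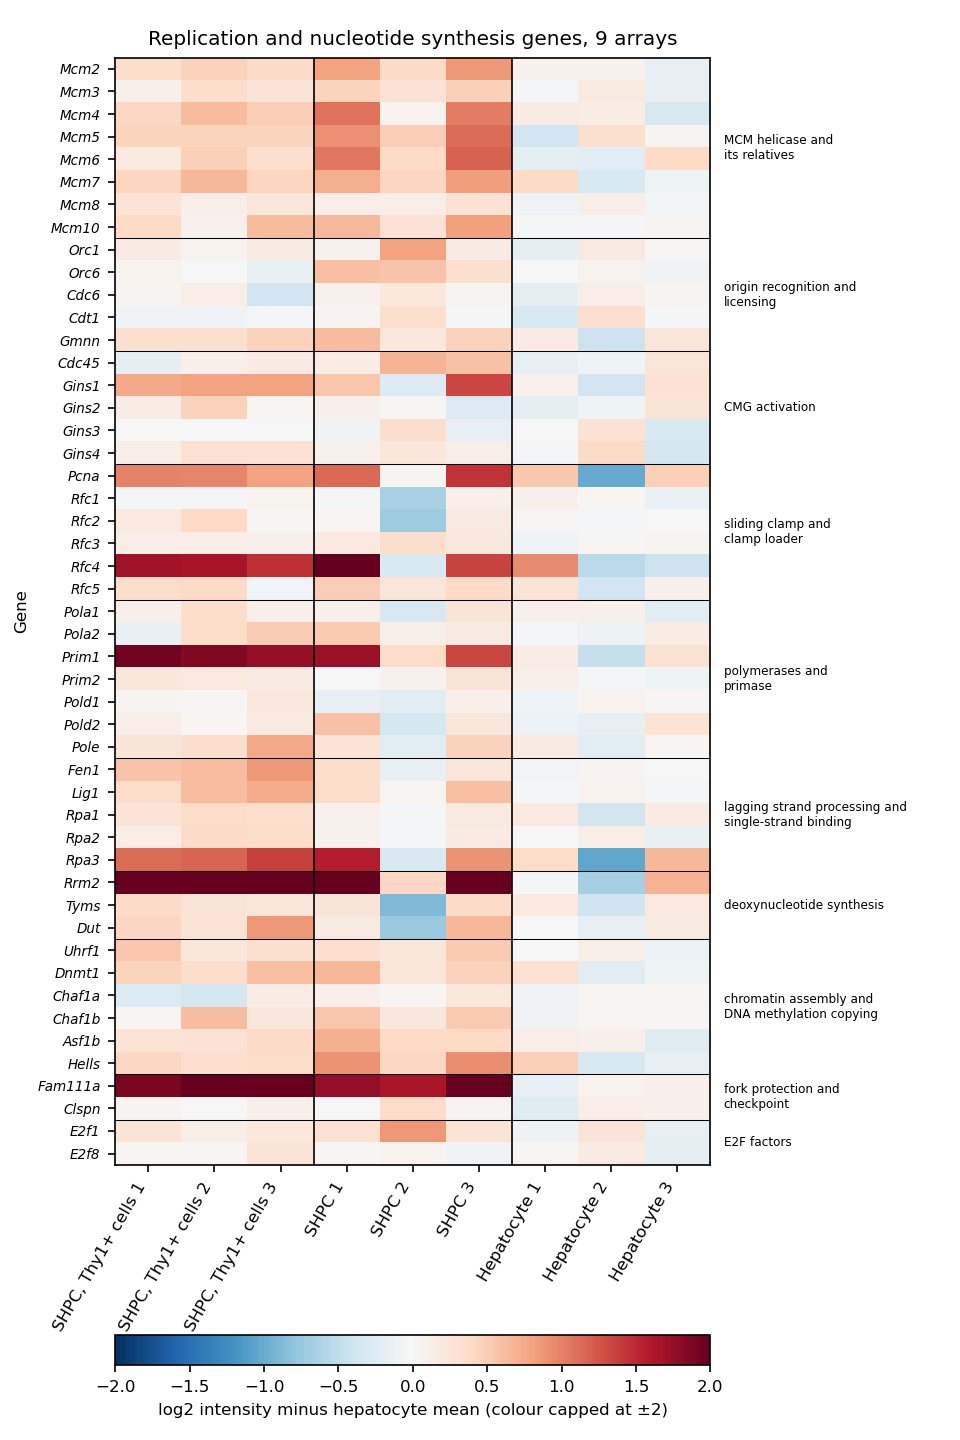
Heat map of the 49 tested members (rows, grouped by role) on the 9 arrays (columns), coloured by log2 intensity minus the hepatocyte mean and capped at ±2. Fam111a, Rrm2 and Prim1 are the darkest rows over the SHPC arrays of transplanted livers, and SHPC array 2 is paler than SHPC arrays 1 and 3 for most members.

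The comparison of SHPCs of transplanted livers with hepatocytes sets the clusters against hepatocytes of other livers. Fam111a, Rrm2 and Prim1 rose in SHPCs of transplanted livers, by 4.27-fold, 6.74-fold and 3.58-fold. These were 3 of the 49 members, 3 higher and 0 lower, where 1.18% of all tested genes were called. In all 45 of 49 members were higher, with a median difference of 0.29 against −0.00 over all tested genes. All 3 arrays lay above all 3 hepatocyte arrays for 25 members (51.0%) and below them for 0, against 12.6% and 6.64% of all tested genes. At an unadjusted limma p under 0.05 there were 12 members higher and 0 lower, against 7.07% and 3.32% of all tested genes. Without both arrays numbered 2, 47 members were higher and 4 were called (Fam111a, Fen1, Prim1 and Rrm2). Over all tested genes 575 were then called, against 186 in the main fit.

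The comparison of SHPCs with hepatocytes in livers without transplantation asks the same within untransplanted livers. Fam111a rose 3.85-fold and was the 1 called member of 49, where 0.0633% of all tested genes were called. Of the members 44 were higher, with a median difference of 0.35 against −0.01 over all tested genes. The arrays did not overlap for 14 members, all above (28.6%), against 2.72% above and 2.49% below among all tested genes. At an unadjusted limma p under 0.05 there were 19 members higher (38.8%) and 0 lower, against 2.31% and 1.81% of all tested genes. Both comparisons use the same hepatocyte arrays, so they are not separate evidence. Called members numbered 5 without SHPC array 2 (Fam111a, Mcm2, Mcm4, Prim1 and Rrm2), 5 without both arrays that stood apart (Fam111a, Mcm2, Mcm5, Prim1 and Rrm2) and 16 with array weights. Over all tested genes the calls were then 53, 48 and 375, against 10 in the main fit. The replicate number as a block left 1 called member, although it took the calls over all tested genes to 35 instead of 10.

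The comparison of SHPCs with and without transplantation sets clusters that formed with donor cells in the liver against clusters that formed without them. Here 0 of the 49 members passed, where 0.00633% of all tested genes did, and 24 were higher and 25 lower, with a median difference of −0.00 against 0.02 over all tested genes. This split depended on 1 array and on the scaling: without SHPC array 2, 18 were higher and 31 lower (median −0.07), and after median centring 30 were higher. The nearest to the threshold were Orc6, lower, and Fen1, higher. Arrays did not overlap for 4 members above (8.16%) and 4 below (8.16%), against 10.6% and 5.23% of all tested genes, and an unadjusted limma p under 0.05 was reached by 2 members higher and 3 lower, against 5.07% and 2.29%. Median centring of each array moves the median of all tested genes from 0.02 to 0.12 and that of the members to 0.10. With array weights 2 members passed, Mcm5 and Mcm6, both lower, where 259 of all tested genes were called.

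**Figure D3:**
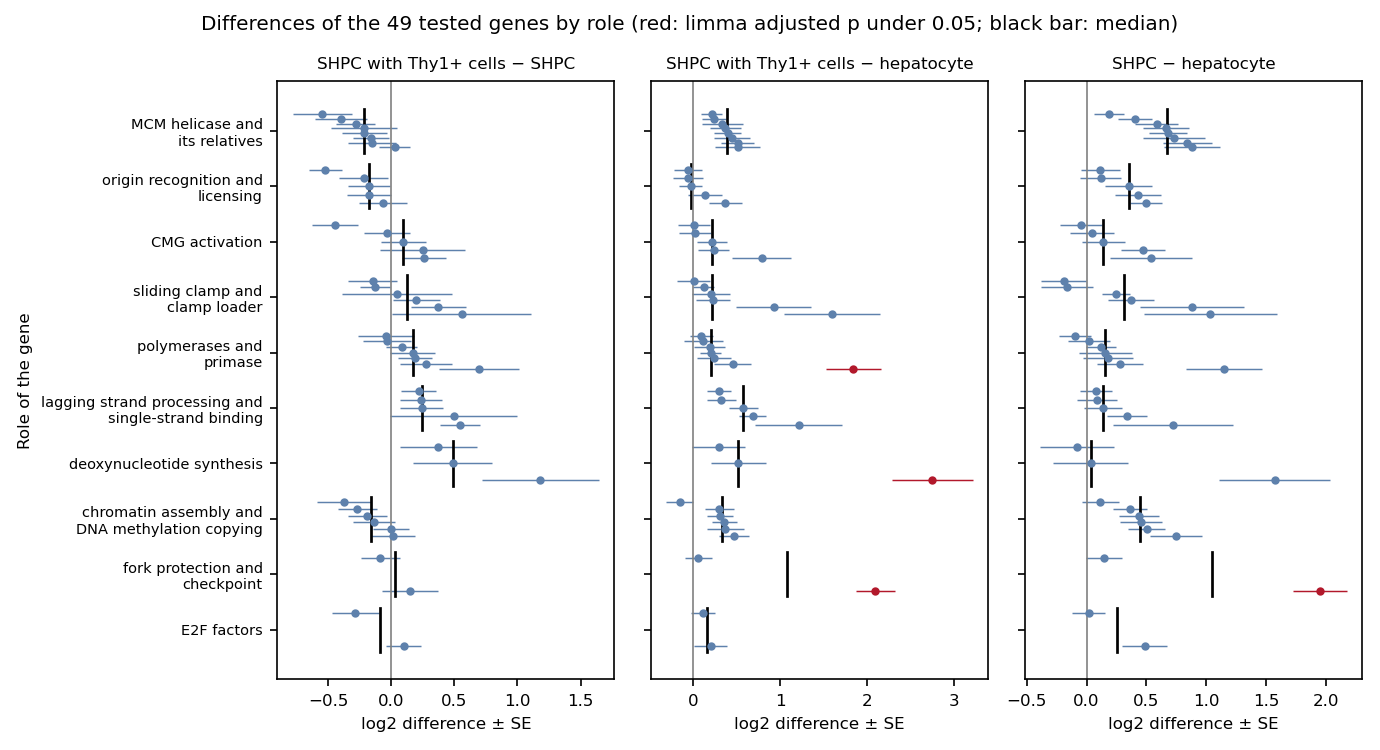
Log2 difference ± SE of each tested member (points, horizontal axis) by role (vertical axis) in the 3 comparisons, with red for a limma adjusted p under 0.05 and a black bar at each role's median. MCM genes lie right of 0 against hepatocytes, and all but 1 lie left of 0 in SHPCs of transplanted livers minus SHPCs.

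The MCM genes were grouped by name, as subunits of the replicative helicase together with Mcm8 and Mcm10. They were higher than in hepatocytes for 8 of 8 in both SHPC groups, with 0 called. Their median difference was 0.38 in SHPCs of transplanted livers and 0.67 in SHPCs, and between the SHPC groups it was −0.22, with 1 of 8 higher. Mcm2 was at 4.89, 5.00 and 4.92 on the arrays of transplanted livers, at 5.34, 4.92 and 5.40 on the SHPC arrays, and at 4.62, 4.63 and 4.37 on the hepatocyte arrays. Every SHPC array of either group exceeded every hepatocyte array, and SHPC arrays 1 and 3 exceeded the transplanted arrays while array 2 did not. Its difference from hepatocytes was 0.68 ± 0.16 (SE) in SHPCs (limma adjusted p = 0.411), and between the SHPC groups it was −0.28 ± 0.16 (limma adjusted p = 0.705). Mcm5 was at 5.01 on all 3 arrays of transplanted livers, where its deposited value is identical, against 5.48, 5.06 and 5.68 on the SHPC arrays and 4.19, 4.89 and 4.62 on the hepatocyte arrays. The 3 groups did not overlap for Mcm5, with SHPCs highest, although no difference of Mcm5 passed. The difference of Mcm5 was 0.84 ± 0.21 (SE) between SHPCs and hepatocytes and −0.40 ± 0.21 between the SHPC groups (limma adjusted p = 0.455 and 0.705).

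Mcm6 was at 4.96, 5.24 and 5.10 in SHPCs of transplanted livers, 5.83, 5.17 and 5.95 in SHPCs and 4.58, 4.55 and 5.17 in hepatocytes. SHPC array 2 fell among the transplanted arrays and hepatocyte array 3 did too, so that neighbouring groups touched. Mcm6 differed by 0.88 ± 0.23 (SE) between SHPCs and hepatocytes (limma adjusted p = 0.555) and by −0.55 ± 0.23 between the SHPC groups (0.669). Means of the other MCM genes followed the same order except for Mcm8, which helps in repair of broken DNA and was at 3.80 ± 0.07, 3.77 ± 0.09 and 3.59 ± 0.11 in SHPCs of transplanted livers, SHPCs and hepatocytes (SD, n = 3 each). Mcm4, with 5.85 ± 0.11, 6.06 ± 0.56 and 5.34 ± 0.28 in the same order, had its lowest SHPC value on array 2. Without SHPC array 2 the MCM median was 0.81 in SHPCs against hepatocytes, and it was −0.40 between the SHPC groups with 0 of 8 higher. Median centring took the median between the SHPC groups to −0.11. Mcm3 and Mcm4 have a second probe set each, of which that of Mcm4 was dimmer and that of Mcm3 overlapped between SHPCs and hepatocytes.

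**Figure D4:**
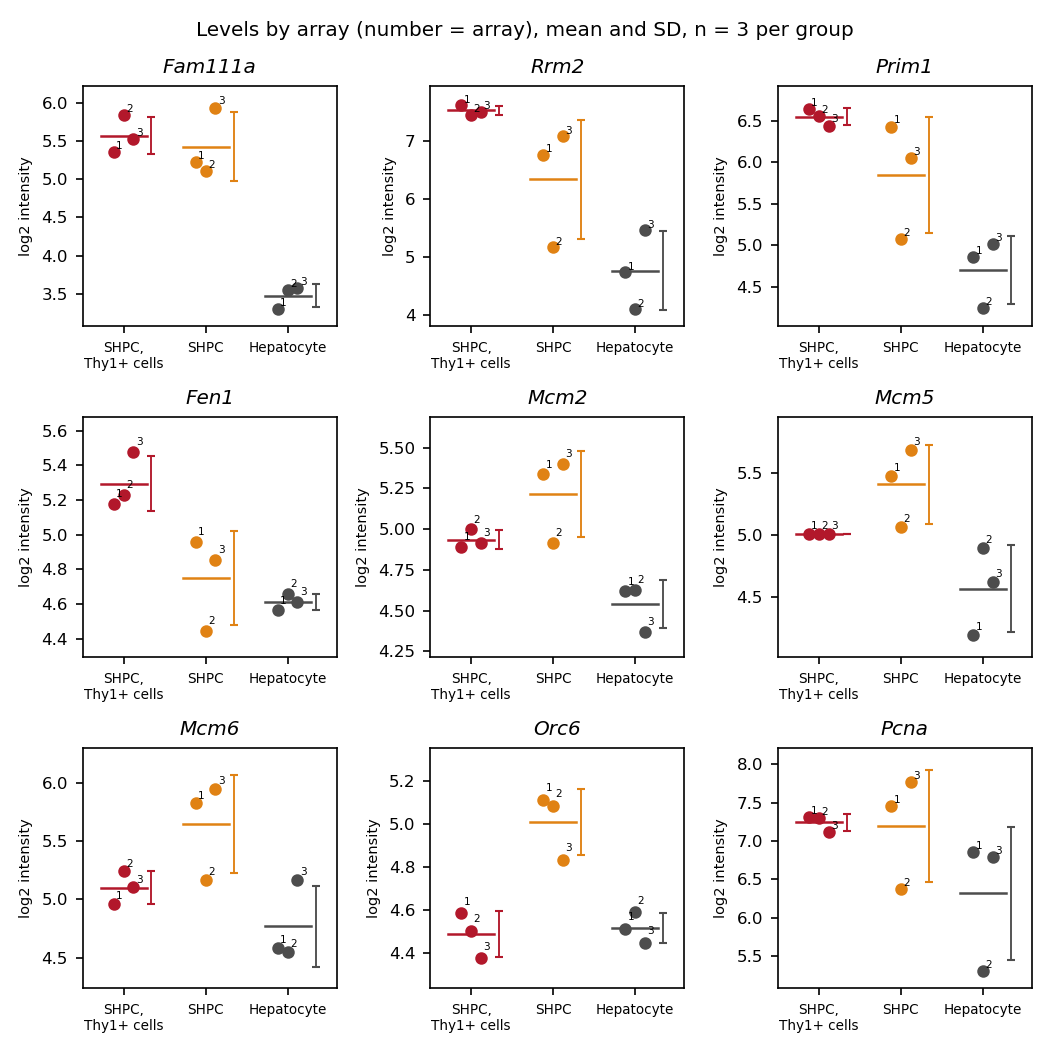
Log2 intensity (vertical axis) of 9 members on each array (points, numbered by array), with group means (bars) and SD (error bars), n = 3 per group. Fam111a lies at 5.10 or above on every SHPC array and at 3.58 or below in hepatocytes, and Orc6 lies at 4.83 or above in SHPCs and at 4.59 or below in the other groups.

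Origin recognition and licensing genes showed Orc6 high in SHPCs alone. Orc6, the smallest subunit of the origin recognition complex, was at 4.59, 4.50 and 4.38 in SHPCs of transplanted livers, against 5.11, 5.08 and 4.83 in SHPCs and 4.51, 4.59 and 4.45 in hepatocytes. All 3 SHPC arrays, array 2 included, exceeded the other 6. Its difference was −0.52 ± 0.13 (SE) between the SHPC groups and 0.49 ± 0.13 between SHPCs and hepatocytes (limma adjusted p = 0.332 and 0.555), so it passed in neither comparison. Its adjusted p between the SHPC groups ranged from 0.0603 to 0.906 over the alternatives. Cdt1, the loading factor, and its inhibitor Gmnn (geminin) were at 4.90 ± 0.02, 5.08 ± 0.19 and 4.96 ± 0.32 and at 4.59 ± 0.08, 4.66 ± 0.21 and 4.23 ± 0.36 in SHPCs of transplanted livers, SHPCs and hepatocytes (SD, n = 3 each). Orc1 and Cdc6, which help to open the ring for loading, were low, with means from 3.31 to 3.79. All 5 genes of this role were lower in SHPCs of transplanted livers than in SHPCs, with a median of −0.18, and each scaling alternative turned 1 of them to higher.

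Among genes that activate the helicase, Gins1 was at 4.41, 4.47 and 4.46 in SHPCs of transplanted livers, 4.21, 3.39 and 5.00 in SHPCs and 3.74, 3.29 and 3.96 in hepatocytes. The transplanted arrays were close together and above the hepatocytes, and the SHPC arrays spanned both. Cdc45 was at 3.87, 4.18 and 4.22 in SHPCs of transplanted livers, against 4.22, 4.74 and 4.65 in SHPCs, a difference of −0.45 ± 0.18 (SE, limma adjusted p = 0.655), and at 3.91, 3.98 and 4.32 in hepatocytes. The other GINS genes had means from 4.03 to 5.01 in every group, and Gins3 was identical on the 3 transplanted arrays and hepatocyte array 1. Identical values also occurred in other members and groups. Pola1, for example, was at 4.71 on transplanted arrays 1 and 3, SHPC array 1 and hepatocyte arrays 1 and 2.

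Pcna, the sliding clamp, was at 7.32, 7.30 and 7.12 in SHPCs of transplanted livers, 7.45, 6.37 and 7.77 in SHPCs and 6.85, 5.31 and 6.79 in hepatocytes. Both arrays numbered 2 were the lowest of their groups, and without them the remaining hepatocytes lay below every SHPC array. Between same-numbered arrays Pcna was higher in SHPCs than in hepatocytes by 0.60, 1.06 and 0.98. Its difference between the SHPC groups was 0.04 ± 0.43 (SE, limma adjusted p = 0.980), and this turned to −0.37 without SHPC array 2. Of the clamp loader genes, Rfc4 spread most, at 5.52, 5.50 and 5.30 in SHPCs of transplanted livers, 5.90, 3.55 and 5.21 in SHPCs and 4.80, 3.31 and 3.44 in hepatocytes. The transplanted arrays lay above all hepatocyte arrays, with a difference of 1.59 ± 0.55 (SE, limma adjusted p = 0.314). Rfc1, which belongs to the same loader, was at 6.89 ± 0.05, 6.69 ± 0.40 and 6.88 ± 0.12 in the same order of groups (SD, n = 3 each).

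Prim1, the catalytic subunit of primase, was at 6.64, 6.56 and 6.44 in SHPCs of transplanted livers, 6.43, 5.07 and 6.05 in SHPCs and 4.86, 4.24 and 5.01 in hepatocytes. The 3 groups did not overlap and the transplanted arrays were highest. Prim1 rose by 1.84 ± 0.32 (SE) in SHPCs of transplanted livers against hepatocytes (limma adjusted p = 0.0270). It differed by 1.14 ± 0.32 between SHPCs and hepatocytes (adjusted p = 0.575, or 0.0331 without SHPC array 2 with a difference of 1.53) and by 0.70 ± 0.32 between the SHPC groups (0.691, with 0.31 without SHPC array 2). A second probe set of Prim1 gave 6.25, 6.25 and 6.60, then 6.14, 4.91 and 5.81, and 4.82, 4.73 and 4.50 in the same order. The call against hepatocytes ended without any 1 of the transplanted or hepatocyte arrays (limma adjusted p from 0.0762 to 0.148) after median centring (0.0854) and over all probe sets (0.0980). Its partner Prim2, the other primase subunit, was at 5.00 ± 0.03, 4.92 ± 0.13 and 4.80 ± 0.10 (SD, n = 3 each). The polymerase subunit genes Pola1, Pola2, Pold1, Pold2 and Pole had means from 4.52 to 5.31 in every group and 0 of them passed in any comparison.

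Genes of lagging strand processing had their highest mean in SHPCs of transplanted livers for 5 of 5, with 0 called in any comparison of the main fit. Without SHPC array 2, 4 of 5 were higher there than in SHPCs, and Rpa3 was the exception. Fen1, the nuclease that trims Okazaki fragment flaps, was at 5.18, 5.23 and 5.48 in SHPCs of transplanted livers, 4.96, 4.45 and 4.85 in SHPCs and 4.56, 4.66 and 4.61 in hepatocytes. The transplanted arrays exceeded the other 6, and SHPCs and hepatocytes overlapped. Fen1 differed by 0.54 ± 0.16 (SE) between the SHPC groups (limma adjusted p = 0.457) and by 0.68 ± 0.16 between SHPCs of transplanted livers and hepatocytes (0.0934). Lig1, the ligase that joins the fragments, differed by 0.58 ± 0.17 in the second of these comparisons (0.197), with means of 5.46 ± 0.19, 5.22 ± 0.28 and 4.88 ± 0.06 in SHPCs of transplanted livers, SHPCs and hepatocytes (SD, n = 3 each). Between SHPCs of transplanted livers and hepatocytes Fen1 passed under 4 of the 22 alternatives, with limma adjusted p from 0.00121 to 0.374 over them. Rpa1, Rpa2 and Rpa3 code for the complex that coats single-stranded DNA. Rpa3 was at 5.57, 5.61 and 5.83 in SHPCs of transplanted livers, 6.03, 4.16 and 5.35 in SHPCs and 4.83, 3.41 and 5.12 in hepatocytes, again lowest on both arrays numbered 2.

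Rrm2, the small subunit of ribonucleotide reductase and limiting for deoxynucleotide supply, was at 7.61, 7.45 and 7.50 in SHPCs of transplanted livers. It was at 6.76, 5.18 and 7.08 in SHPCs and at 4.74, 4.10 and 5.46 in hepatocytes. The transplanted arrays were above the other 6, and SHPC array 2 lay below hepatocyte array 3. Between same-numbered arrays 1, 2 and 3, Rrm2 was higher in SHPCs than in hepatocytes by 2.02, 1.07 and 1.62. Rrm2 rose by 2.75 ± 0.46 (SE) in SHPCs of transplanted livers against hepatocytes (limma adjusted p = 0.0251). It differed by 1.57 between SHPCs and hepatocytes (limma adjusted p = 0.659) and by 1.18 ± 0.46 between the SHPC groups (0.642), and this last difference was 0.60 without SHPC array 2. Its second probe set was at 6.63, 6.12 and 6.54 in SHPCs of transplanted livers, 6.08, 5.01 and 6.60 in SHPCs and 3.76, 4.67 and 4.95 in hepatocytes, so by that probe set the SHPC groups overlapped. The call of Rrm2 against hepatocytes ended (limma adjusted p in brackets) when transplanted array 1, 2 or 3 was left out (0.131, 0.106 and 0.128), when hepatocyte array 1 or 2 was (0.0902 and 0.0947), after median centring (0.0693) and over all probe sets (0.0955). Tyms, thymidylate synthase, was at 7.06 ± 0.08, 6.69 ± 0.70 and 6.77 ± 0.34, and Dut, the dUTPase, at 6.58 ± 0.31, 6.10 ± 0.71 and 6.06 ± 0.17 in SHPCs of transplanted livers, SHPCs and hepatocytes (SD, n = 3 each). For both genes all transplanted arrays exceeded all hepatocyte arrays, by small margins, and SHPC array 2 was the lowest of the 9.

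Genes that rebuild chromatin and copy DNA methylation behind the fork were higher in SHPCs than in hepatocytes for 6 of 6, with a median of 0.45, and in SHPCs of transplanted livers for 5 of 6, with 0.33. Hells, a chromatin remodeller needed for DNA methylation, was at 5.10 ± 0.04, 5.48 ± 0.29 and 4.74 ± 0.41 in SHPCs of transplanted livers, SHPCs and hepatocytes (SD, n = 3 each). Uhrf1, which brings the methyltransferase to new DNA, was at 4.70 ± 0.16, 4.70 ± 0.15 and 4.34 ± 0.12 in the same order. Dnmt1, that methyltransferase, was at 5.90 to 6.15 in SHPCs of transplanted livers, 5.79 to 6.21 in SHPCs and 5.34 to 5.85 in hepatocytes. For both genes the SHPC groups overlapped and every transplanted array lay above every hepatocyte array, and 0 genes of this role passed in any comparison. Asf1b, a histone chaperone, was lower on each transplanted array (4.49, 4.51 and 4.60) than on each SHPC array (4.94, 4.62 and 4.62), and hepatocytes were at 4.36, 4.33 and 3.98. Chaf1a, a subunit of the chromatin assembly factor, differed by −0.27 ± 0.15 (SE) between the SHPC groups (limma adjusted p = 0.705).

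Fam111a, in human cells a protease that protects replication forks, was at 5.35, 5.83 and 5.52 in SHPCs of transplanted livers, 5.23, 5.10 and 5.93 in SHPCs and 3.31, 3.54 and 3.58 in hepatocytes. The SHPC groups overlapped and all 6 of their arrays, array 2 included, were more than 1.5 units above every hepatocyte array. Fam111a rose by 2.09 ± 0.22 (SE) in SHPCs of transplanted livers and by 1.95 ± 0.22 in SHPCs against hepatocytes (limma adjusted p = 0.00346 and 0.0249). The first call held under all 22 alternatives (largest adjusted p = 0.0356). The second ended without transplanted array 1, 2 or 3 (0.0705, 0.0565 and 0.0678), which are not compared but share the estimate of spread, without SHPC array 1 (0.0727) and without hepatocyte array 1, 2 or 3 (0.140, 0.0782 and 0.151). It also ended when only the arrays of these 2 groups were fitted (0.213), after median centring (0.103) and over all probe sets (0.113), while its size stayed between 1.69 and 2.14. Clspn, a checkpoint adaptor, was at 4.07 ± 0.05, 4.16 ± 0.20 and 4.01 ± 0.21 in SHPCs of transplanted livers, SHPCs and hepatocytes (SD, n = 3 each). The factor E2f1, an activator, was at 4.16 ± 0.08, 4.45 ± 0.33 and 3.96 ± 0.22, and E2f8, a repressor, at 5.00 ± 0.13, 4.91 ± 0.08 and 4.89 ± 0.18 in the same order.

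Medians were also taken over members with and without E2F letters, and the difference between these sets was not tested. In SHPCs of transplanted livers against hepatocytes the median was 0.35 over 20 tested members with a match and 0.24 over 21 without, in SHPCs against hepatocytes 0.35 and 0.28, and between the SHPC groups −0.05 (8 of 20 higher) and 0.08 (12 of 21 higher). Prim1 and Fam111a, printed above with no match, had larger differences from hepatocytes than any MCM gene.

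Other genes of the pathway were taken from a list of 90, of which 82 were tested, and 0 of them passed in any of the 3 comparisons. In SHPCs of transplanted livers against hepatocytes 61 were higher with a median of 0.17, in SHPCs against hepatocytes 57 with 0.07, and between the SHPC groups 54 with 0.10. Mms22l, which in human cells protects stalled forks, differed from hepatocytes by 0.94 ± 0.23 (SE) in SHPCs of transplanted livers and by 0.89 ± 0.23 in SHPCs (limma adjusted p = 0.109 and 0.525). Dbf4, the activating subunit of the Cdc7 kinase that fires origins, differed by 0.58 ± 0.16 from hepatocytes and by 0.49 ± 0.16 between the SHPC groups (0.165 and 0.494), and Ticrr, which helps to load Cdc45, by 0.70 ± 0.22 from hepatocytes (0.247). In the opposite direction between the SHPC groups were Nap1l1, a histone chaperone, at −0.48 ± 0.15, and the cyclin E genes Ccne2 at −0.43 ± 0.18 and Ccne1 at −0.39 ± 0.18, cyclins of entry into S phase (limma adjusted p = 0.461, 0.669 and 0.695). Lower than in hepatocytes were 21 genes in SHPCs of transplanted livers and 25 in SHPCs. Those with the smallest p were Nap1l1 at −0.50 ± 0.15 (SE), E2f5 at −0.29 ± 0.19 and Mybl2 at −0.17 ± 0.12 in SHPCs of transplanted livers (limma adjusted p = 0.199, 0.662 and 0.667). In SHPCs they were Mybl2 at −0.36 ± 0.12 (0.794), Rrm2b at −0.44 ± 0.23 and Gart at −0.35 ± 0.21. Rbl2, the pocket protein that with E2f4 represses cell cycle genes in resting cells, was at 0.60 ± 0.21 between the SHPC groups (limma adjusted p = 0.535). Tfdp2, which codes for a partner of E2F factors, was at 0.37 ± 0.12 in the same comparison (0.478).

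Genes of G2 and M phase are the nearest comparison and were less mixed. All 23 tested genes of that list were higher in both SHPC groups than in hepatocytes, with medians of 1.63 in SHPCs of transplanted livers (12 called) and 0.93 in SHPCs (1 called), and 22 were higher between the SHPC groups, with a median of 0.61 and 0 called. Over all 15793 tested genes 1.18%, 0.0633% and 0.00633% were called in the same order of comparisons. Those higher numbered 7864, 7677 and 8369 of all tested genes. Mki67, a marker of cycling cells, was at 8.38, 8.34 and 8.84 in SHPCs of transplanted livers, 7.78, 6.77 and 8.28 in SHPCs and 5.42, 4.94 and 6.08 in hepatocytes. The 3 groups did not overlap. Ccna2, the cyclin of S and G2 phase, differed by 1.16 ± 0.37 (SE) between the SHPC groups (limma adjusted p = 0.478), and Ccnb1, the mitotic cyclin, by 0.77 ± 0.18 (0.301). Over the same arrays the members' median was −0.00. With SHPC array 2 left out, the median of the G2 and M phase list was 0.32 and the members' −0.07. Whether the lists differ in their response was not tested.

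Markers of other cell types moved with the groups in part. The 11 Kupffer cell markers were all higher in SHPCs of transplanted livers than in SHPCs (median 0.62, and 0.29 without SHPC array 2), with summed linear intensities of 2921 to 3581 in SHPCs of transplanted livers, 1557 to 2511 in SHPCs and 2150 to 2860 in hepatocytes. Against hepatocytes 10 of them were higher in SHPCs of transplanted livers and 1 in SHPCs. Sums for stellate cells and fibroblasts (9 genes) were 918 to 1117, 599.7 to 910 and 693 to 1044 in SHPCs of transplanted livers, SHPCs and hepatocytes, and for sinusoidal endothelium (5 genes) 735 to 857, 497 to 719.7 and 576 to 836. For cholangiocytes (7 genes) they were 172 to 203, 169.8 to 187 and 150.4 to 196, for T and NK cells (10 genes) 377 to 486, 229 to 350.3 and 256 to 456, for B cells (5 genes) 1598 to 1906, 767 to 1592 and 1072 to 1727, and for erythroid cells (2 genes) 57.7 to 59.5, 54.8 to 71.6 and 48.2 to 60.5. A sum follows its brightest probe sets. For B cells this is Cd74, the invariant chain that associates with MHC class II in antigen-presenting cells in general. For T and NK cells it is Cd4, which rat macrophages also carry. Between the SHPC groups Cd74 and Cd4 differed by 0.52 and 0.99, while 2 of 5 B cell genes and 4 of 8 tested T and NK cell genes were higher, with medians of −0.08 and 0.02. The lowest SHPC value of the Kupffer, stellate, endothelial, T and NK and B cell sums was on array 2. The T cell gene Cd3d lay at or below the 25th percentile on all 9 arrays. The part of these cells in the members' values was not tested, and in such regions a smaller number of dividing cells and less RNA per cell cannot be told apart.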

How the data were processed

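The 9 arrays (3 per group) are Affymetrix whole-transcript arrays of RNA extracted with RNeasy columns. The authors deposited an intensity for 36685 probe sets per array, made with RMA per the submitters' processing notes, whose version and settings are not given in the sources used here. The values run on a linear scale, so log2 was taken here. Groups follow the cell type label: for the hepatocytes the description label names transplanted SHPCs instead, while cell type and titles give controls. Names came from the platform's annotation (18511 probe sets with 1 symbol), and of several probe sets the brightest on average stood for a gene. Testing required a value over the array's 25th percentile on at least 3 arrays. The comparisons come from limma 3.58.1 (R 4.3.3): 1 fit of the 3 group means, leaving 6 residual degrees of freedom, then eBayes and p-values adjusted by Benjamini-Hochberg, and the fit was tested on simulated data. Members, lists and tests were chosen with earlier results of these data known. Named differences are called members, up to 6 with the smallest p per direction, up to 3 other pathway genes per direction, Mcm2, Pcna and Rrm2 between the SHPC groups, and 5 genes of cell division, where the unadjusted p is under 0.2 or the gene is always named. Other members were chosen as examples after their values were seen. Deviations from group means of same-numbered arrays correlated by 0.53, 0.70 and 0.34 between SHPCs and hepatocytes, all over 0.1, and by −0.09 to 0.00 for pairs with the transplanted group. Arrays of unlike number correlated too, SHPC array 3 with hepatocyte array 1 by 0.48 and SHPC array 1 with hepatocyte array 3 by 0.24, so that SHPC array 3 did not correlate best with its own number. Promoters are RefSeq's, build GRCr8. The number of arrays limits the precision.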

Additional observations from a re-analysis of the deposited data

How the results depend on the processing

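Counts and medians were recomputed under 22 alternatives, as were 52 of 58 named differences. The other 6 had 21, since their genes did not pass the filter at the array median. Of the 58, 57 kept their sign in every alternative run for them, and the exception was Pcna between the SHPC groups, at −0.060 after quantile normalization, −0.11 after cyclic loess, −0.35 with array weights and −0.37 without SHPC array 2, alone or with hepatocyte array 2. The count of called members in SHPCs against hepatocytes (1) was 0 after median centring, when only the 2 groups were fitted and over all probe sets, 16 with array weights, 5 without both arrays numbered 2, and 0 to 5 without single arrays. Over all genes 10 were called in the main fit and 0 in the first 3 of these alternatives, then 375, 48 and 0 to 53. In SHPCs of transplanted livers against hepatocytes the count of called members (3) was 1 after median centring and over all probe sets, 19 with array weights and 1 to 4 without single arrays. Over all genes 186 were called in the main fit, and 47, 42, 2685 and 31 to 472 in these alternatives in this order. Between the SHPC groups the count of called members was 0, except 2 with array weights. With these weights 259 of all tested genes were called, against 1 in the main fit. The weights were 0.126 for SHPC array 2 and 4.03 for hepatocyte array 3. The members' median between the SHPC groups was 0.10 after median centring. In SHPCs of transplanted livers against hepatocytes it was 0.33 with a filter at the array median, 0.39 after median centring, 0.34 after cyclic loess and 0.25 to 0.33 without single arrays. With the replicate number as a block the counts of called members were 1, 3 and 0, as without it, and the medians did not move, in this paired form as a fixed or random replicate block (consensus correlation 0.156). The cause of these movements was not tested.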
